A study of Bos taurus with 53 samples.

Results

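The genes described here are the fibroblast growth factor (FGF) ligands, their receptors, and the genes that damp or report FGF signalling, in bovine embryos at day 14 of development. They were taken from the count table by gene symbol alone, as every FGF, FGFR1 to FGFR4, FGFRL1, Sprouty (SPRY), SPRED and dual-specificity phosphatase (DUSP) row together with ETV1 and ETV5, which gave 51 of 24596 rows. By role these were 11 paracrine ligands, 3 endocrine ligands, 1 intracellular FGF homologous factor, 5 receptors, 7 Sprouty and Spred inhibitors, 2 transcription factors of the ETS family and 22 phosphatases, of which 7 act mainly on the kinase ERK or are induced by it, 3 act mainly on stress kinases and 12 are atypical. FGF2, FGF4, FGF9, FGF10, FGF13, DUSP13 and DUSP28 are not analysed here.

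FGF ligands bind receptor tyrosine kinases together with heparan sulphate, and the bound receptor activates the RAS, RAF, MEK and ERK cascade. ERK in turn raises ETV transcription factors, which carry the response, and Sprouty, Spred and DUSP6 proteins, which shut the same cascade down, so these genes are often read as reporters of the pathway. In mammalian embryos FGF signalling is known for its part in separating hypoblast from epiblast, in trophoblast growth and, with FGF8 and FGF17, in the primitive streak.

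Oocytes were matured in serum-free medium with murine epidermal growth factor, fertilised in vitro and cultured with fetal bovine serum, and the blastocysts were transferred to recipient cows and flushed on day 14. Maturation took place with no added fatty acid and no solvent (CONTROL), with 28 µM stearic, 23 µM palmitic and 21 µM oleic acid in 0.45% ethanol (BASAL), or with the same acids and solvent but 150 µM palmitic acid (HIGH PA). Each embryo was scored as spherical, ovoid or tubular and dissected into embryonic disc (ED) and extraembryonic tissue (EX), which gave 12 BASAL, 8 HIGH PA and 3 CONTROL discs and 14 BASAL, 10 HIGH PA and 4 CONTROL extraembryonic samples. In all, 53 libraries came from 30 embryos of 7 cows, 2 of them from undissected HIGH PA embryos, and every CONTROL embryo came from cow 813. Of the discs 8 were ovoid and 15 tubular, and of the extraembryonic samples 9 were ovoid, 17 tubular and 2 spherical.

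Exon reads per disc library ran from 6814 to 6167850 with a median of 2431185, and per extraembryonic library from 9810 to 19533821 with a median of 7626608. Levels are given as counts per 1000000 exon reads of the library (CPM) in the 22 discs and 27 extraembryonic samples over 10000 reads, and 22 embryos had both. The label of the disc was checked against epiblast genes: SOX2, PRDM14 and NODAL, which mark the epiblast, had reads in 21 of 22 discs and were at 0 in 26, 20 and 24 of 27 extraembryonic samples. All 3 were at 0 in the same disc, the ovoid disc BASAL 12, which holds 2500029 reads, and results on the tissues are given with and without it. The other epiblast genes with rows, SALL4 and DNMT3B, had reads in all 22 discs and all 27 extraembryonic samples. Their medians were 127 and 527 CPM in discs and 52.6 and 77.8 CPM outside. Summed over all 5 epiblast genes the level was 156 to 1551 CPM in discs and 20.8 to 428 CPM in extraembryonic samples. DNMT3B weighs most in this sum. The discs also held the genes of the other layers, with median sums of 4043 CPM for 15 hypoblast and yolk sac genes and 14814 CPM for 11 trophectoderm genes, against 1558 and 20619 CPM in extraembryonic tissue.

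**Figure D1:**
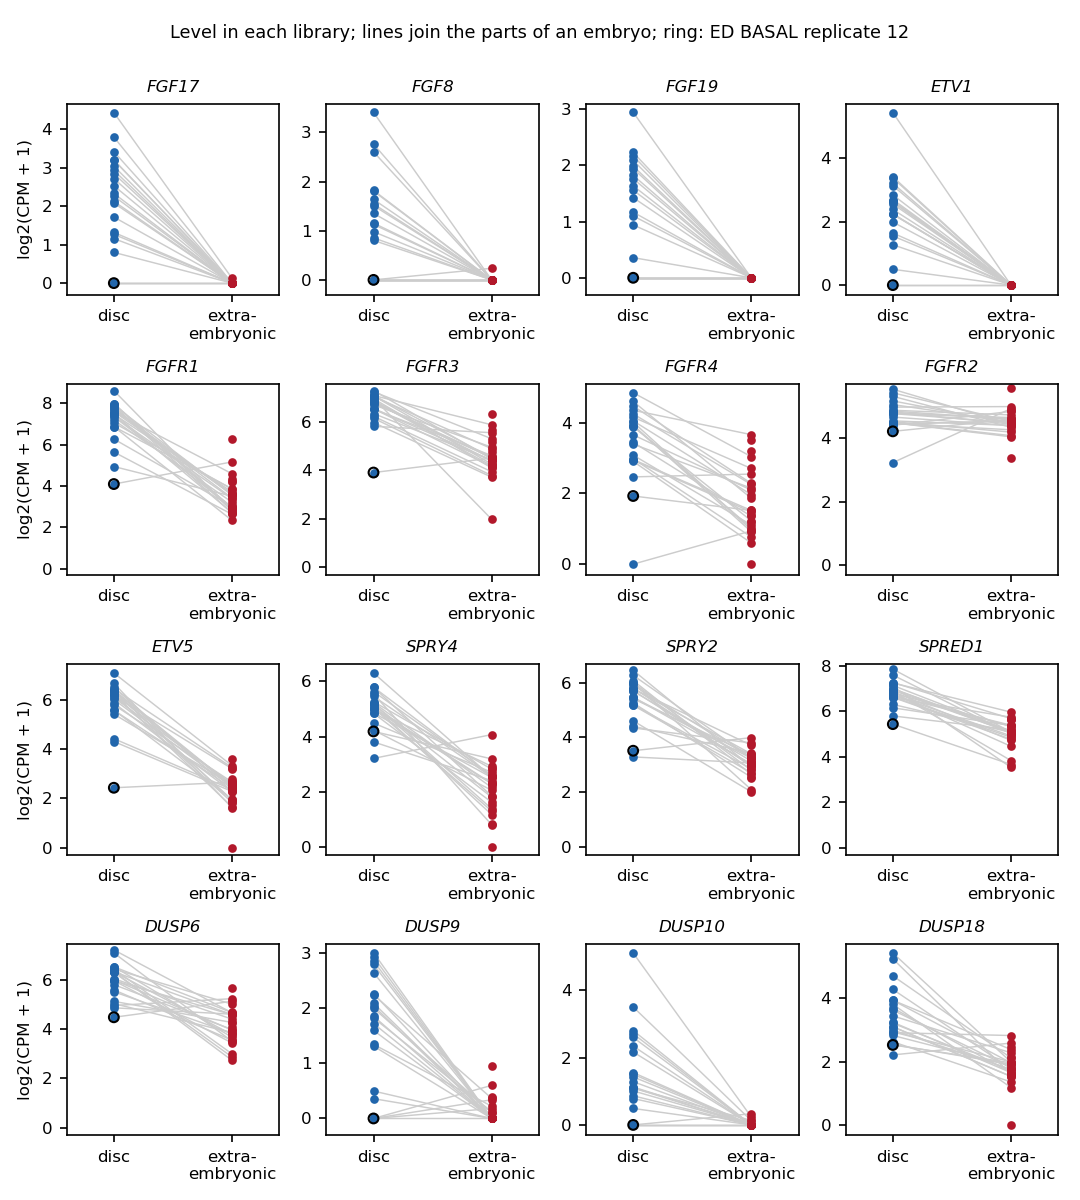
Level of 16 FGF pathway genes in disc and extraembryonic tissue as log2(CPM + 1), each line joining the parts of 1 embryo (22 embryos) and each ring marking disc BASAL 12. For FGF17, ETV1, ETV5, FGFR1 and SPRY4 nearly all lines with reads run down from disc to extraembryonic tissue, and for FGFR2 17 of 22 lines run down within a range that both parts share.

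The 2 parts of each embryo were compared to ask where in the embryo each gene is transcribed. The ligands FGF17, FGF8 and FGF19 and the ETS factor ETV1 had reads in most discs and 0 or 1 read in all extraembryonic samples together, FGFR1 and ETV5 had log2 changes of -3.80 and -3.52, and each of the 5 Sprouty and Spred genes tested was lower outside the disc. FGFR2 was not called, and a few phosphatases were higher in extraembryonic tissue. Of 34 members with enough reads to test, 25 were called by edgeR's quasi-likelihood test (Benjamini-Hochberg adjusted p under 0.05), 20 lower and 5 higher outside the disc. That is 73.5% of the members tested, beside 55.3% of all 11921 genes tested, of which 3671 (30.8%) were lower and 2921 (24.5%) higher. The median log2 change was -1.10 over the members tested and -0.01 over all genes. Members entered the test only through the reads they had in either part, so these counts do not speak for the other 17. FGF17, FGF8, FGF19, ETV1, DUSP9, DUSP10 and DUSP15 were below the filter in extraembryonic tissue alone. They entered through their disc reads, so that their direction was largely set by the filter.

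Of the paracrine ligands only FGF17 and FGF8, close relatives expressed in the primitive streak and in brain signalling centres, could be tested. Both passed the filter through their disc reads and were lower outside the disc. FGF17 (chromosome 8, 69859520 to 69864355, UMD3.1) was at 0, 3.92 and 20.7 CPM (lowest, median, highest) in the discs, with 255 reads in 19 of them. The 27 extraembryonic samples held 1 FGF17 read in all. By pooled reads FGF17 was 1001 times higher in the discs (95% interval of counting error 178 to 39694), and edgeR's adjusted p was 1.67e-17. In 19 of 22 embryos the disc was higher, and in the other 3 both parts were at 0.

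FGF8 (chromosome 26, 22375028 to 22380835) was at 0, 1.08 and 9.61 CPM in the discs, with 87 reads in 14 of them, and had 1 read in extraembryonic tissue. The pooled ratio was 342 (counting interval 59.7 to 13643), with an adjusted p of 5.15e-11 in edgeR and 0.075 in DESeq2, so that FGF8 was not called by the second tool. Its disc was higher in 14 embryos and lower in 1, and 7 embryos had no read in either part. The endocrine ligand FGF19 (chromosome 29, 47591666 to 47595475), which in adults carries a bile acid signal from gut to liver, was at 0, 1.47 and 6.71 CPM in the discs with 95 reads in 15 of them. No extraembryonic sample had an FGF19 read, so that it was at least 124-fold higher in the discs, taking 3 counts over all extraembryonic samples as the limit of a count of 0, and it was called lower outside the disc.

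The other ligands were below the filter in both parts. FGF18, a ligand of cartilage, bone and lung, reached 1.5 CPM in 1 disc and 2.58 CPM in extraembryonic tissue, with 6 and 44 exon reads. Its introns held 1952 and 3983 reads, the opposite balance of introns and exons to FGF17, whose introns held 113 reads in discs and 2 in extraembryonic tissue. FGF20 had 1 read in discs and 13 in extraembryonic samples, at most 0.389 CPM, FGF16 had 1 and 2, and the intracellular factor FGF11 had 18 and 3, at most 0.949 CPM. FGF5, FGF6 and FGF7 had no read in any library, which allows up to 0.0566 CPM over the discs and 0.0144 CPM over extraembryonic tissue. Another 6 members, FGF1, FGF3, FGF21, FGF22, FGF23 and DUSP21, had reads in 1 or 2 libraries.

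The receptors differed from each other in where they were found. FGFR1 (chromosome 27, 33250533 to 33291989), the main receptor of epiblast and mesoderm in other mammals, was at 16, 177 and 389 CPM in the discs and at 4.02, 9.62 and 76.7 CPM outside them. All but 4 of 22 discs lay above the highest extraembryonic sample, the spherical HIGH PA 10. The log2 change was -3.80 (SE 0.28, adjusted p = 1.15e-12 in edgeR), and FGFR1 was lower outside the disc in 21 of 22 embryos. The 1 exception was the embryo of disc BASAL 12.

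FGFR3 (chromosome 6, 109691051 to 109704277) was at 14.0, 108 and 155 CPM in the discs and 2.96, 21.7 and 78.6 CPM outside. It fell by 2.01 on the log2 scale (SE 0.18, adjusted p = 1.05e-10 in edgeR), and 17 discs lay above every extraembryonic sample. FGFR4 (chromosome 7, 39936163 to 39946911), the receptor through which FGF19 is best known to act, was at 0, 12.7 and 27.7 CPM in the discs and 0, 1.86 and 11.6 CPM outside. Its log2 change was -2.09 (SE 0.22, adjusted p = 3.00e-09 in edgeR), lower in 20 of 22 embryos, although the ranges overlapped in 11 discs. FGFRL1, which binds ligand but has no kinase domain, had medians of 3.70 CPM in discs and 1.23 CPM outside and was also called lower (log2 change -1.54).

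FGFR2 (chromosome 26, 41823652 to 41926635), a receptor of trophoblast in other species, was at 8.40, 26.4 and 45.6 CPM in the discs and 9.36, 21.9 and 47.1 CPM outside. The ranges coincided, although FGFR2 was lower outside the disc in 17 of 22 embryos by CPM. In the fit, which scales libraries by TMM, the log2 change was -0.04 (95% interval -0.25 to 0.17, adjusted p = 0.780 in edgeR). FGFR2 was therefore the 1 receptor gene of 5 that was not called. Counts per gene do not separate the IIIb and IIIc isoforms of the receptors, which differ in the ligands they bind.

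Per length, as CPM divided by the exon length in kilobases, FGFR1 had the highest level of the 4 kinase receptors in 16 of 22 discs and FGFR3 in the other 6. Outside the disc FGFR3 was highest in 21 of 27 samples, FGFR2 in 5 and FGFR1 in 1. The median per-length level of FGFR1 was 54.6 in discs and 2.96 outside, that of FGFR3 39.7 and 7.93, that of FGFR2 6.59 and 5.46, and that of FGFR4 4.04 and 0.593. Of the summed per-length level of the 4 receptors, FGFR1 made up a median of 52.2% in discs (range 25.4% to 65.9%) and 15.3% outside (6.29% to 42.8%). FGFR2 made up 6.80% and 33.1%, and FGFR3 36.5% and 46%. The ratio of FGFR1 to FGFR2 had a median of 7.56 in discs and 0.460 outside, and was higher in the disc in 21 of 22 embryos.

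**Figure D2:**
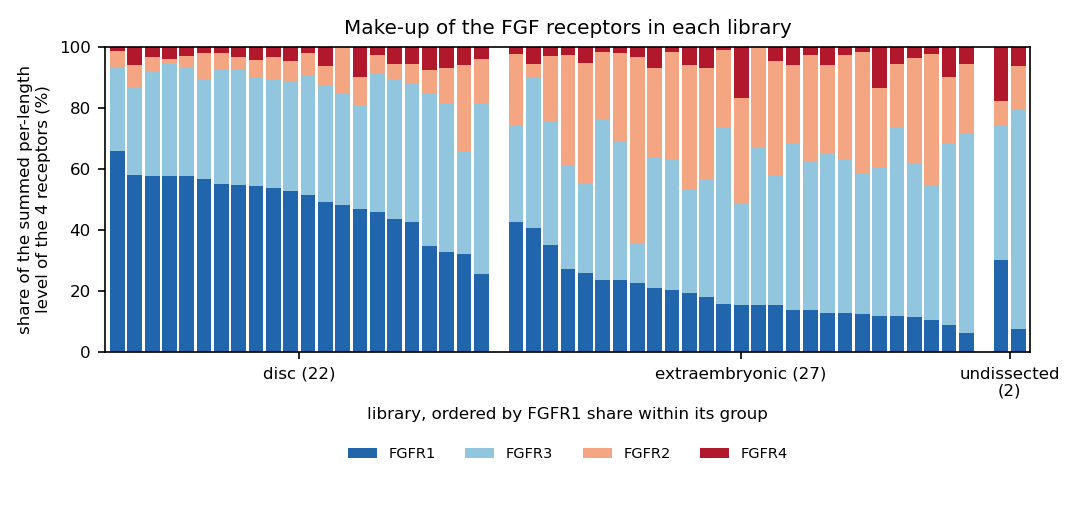
Share of the summed per-length level of FGFR1, FGFR2, FGFR3 and FGFR4 in each library, in percent, for 22 discs, 27 extraembryonic samples and 2 undissected embryos, ordered by the FGFR1 share. The FGFR1 share lies between 25.4% and 65.9% in discs and between 6.29% and 42.8% in extraembryonic tissue, where FGFR2 and FGFR3 take most of the sum.

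The Sprouty and Spred inhibitors, which block RAS and RAF activation downstream of the receptors, were all lower outside the disc where they could be tested. These were 5 of 5, beside 30.8% of all genes tested. SPRY4 (chromosome 7, 55222500 to 55234079) was at 8.23, 32.8 and 78.4 CPM in the discs and 0, 3.87 and 15.8 CPM outside, a log2 change of -2.82 (SE 0.25, adjusted p = 6.11e-11 in edgeR). SPRY2 (chromosome 12, 55684000 to 55685894) was at 8.75, 47 and 86.7 CPM against 3.02, 7.37 and 14.9 CPM, a change of -2.26 (SE 0.22, adjusted p = 3.58e-10). In each of SPRY4, SPRY2 and SPRED1, 20 of 22 discs lay above the highest extraembryonic sample.

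SPRED1 (chromosome 10, 33950023 to 34069008), a membrane-bound inhibitor that recruits the RAS brake neurofibromin, was at 42.4, 114 and 230 CPM in the discs and 10.6, 33.1 and 61.5 CPM outside. It fell by 1.63 on the log2 scale (SE 0.13, adjusted p = 7.47e-12 in edgeR) and was lower in 22 of 22 embryos. SPRY1 had medians of 9.79 and 5.39 CPM and SPRED2 of 16.5 and 12.6 CPM, with log2 changes of -0.66 and -0.38, and 12 and 3 of 22 discs lay above every extraembryonic sample. The SPRED2 call was lost in 9 of 12 alternative fits. SPRY3 and SPRED3 were below the filter, with at most 2.54 and 0.178 CPM in any library.

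Both ETS factors, the transcriptional targets most often used to read FGF activity, were lower outside the disc. ETV5 (chromosome 1, 81725702 to 81784999) was at 4.40, 72.2 and 137 CPM in the discs and 0, 4.49 and 11.2 CPM outside. Except for disc BASAL 12, at the lowest value, all discs lay above all extraembryonic samples, with a log2 change of -3.52 (SE 0.22, adjusted p = 4.55e-14 in edgeR). ETV1 (chromosome 4, 22042176 to 22145007) was at 0, 4.53 and 42 CPM in the discs, with 237 reads in 20 of them, and had no read in extraembryonic tissue, at least a 310-fold difference.

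Among the 7 phosphatases that act on ERK or follow its activity, 3 were lower outside the disc, 1 was higher and 3 were not called. The share called, 57.1%, was near the 55.3% of all genes tested. DUSP9 (chromosome X, 39785474 to 39788263), a cytoplasmic ERK phosphatase needed in placenta and expressed in pluripotent cells of other mammals, was at 0, 2.57 and 7.02 CPM in the discs with 149 reads. Outside it was at 0, 0 and 0.936 CPM with 14 reads, a log2 change of -4.96 (SE 0.49, adjusted p = 1.11e-09 in edgeR). DUSP6 (chromosome 5, 19276347 to 19280028), the ERK phosphatase that FGF signalling induces, was at 21.2, 63.5 and 146 CPM in the discs against 5.62, 15.9 and 50.0 CPM, a change of -1.70. The DUSP6 ranges overlapped, with 15 of 22 discs above every extraembryonic sample, and the disc was higher in 20 of 22 embryos.

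DUSP5, a nuclear ERK phosphatase, had medians of 23.0 and 12.1 CPM but ranges that coincided, and a change of -0.45 that was lost in 6 of 12 alternatives. DUSP1, an early-response phosphatase that also acts on stress kinases, went the other way: it was at 28.7, 62.6 and 167 CPM in the discs and 43.5, 77.7 and 212 CPM outside. It was higher in extraembryonic tissue in 17 of 22 embryos (log2 change 0.66, SE 0.12, adjusted p = 1.72e-05 in edgeR). DUSP2, DUSP4 and DUSP7 had log2 changes of -0.33, -0.33 and -0.20 and were not called.

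Of the 3 phosphatases of stress kinases, DUSP10 (chromosome 16, 25895750 to 25936864) was at 0, 1.31 and 33.6 CPM in the discs and at 0, 0 and 0.259 CPM outside, with 106 and 5 reads. Its log2 change was -5.59 (SE 0.48, adjusted p = 2.06e-10 in edgeR), and the 18 discs with DUSP10 reads all lay above every extraembryonic sample. The highest disc value is 4 reads in a library of 119116. DUSP16 and DUSP8 were not called (log2 change -0.43 and 0.48, adjusted p = 0.0808 and 0.0569 in edgeR).

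The atypical phosphatases, most of which have no settled link to FGF signalling, split by direction, with 2 lower and 4 higher outside the disc of 9 tested. The share called was 66.7%, beside 55.3% of all genes tested. DUSP15 was at 0, 2.68 and 6.10 CPM in the discs and 0, 0.205 and 1.03 CPM outside, a log2 change of -2.67 (SE 0.33, adjusted p = 9.52e-08 in edgeR). DUSP18 (chromosome 17, 71750226 to 71755793) had medians of 8.42 and 2.54 CPM, with a change of -1.65 and 18 of 22 discs above every extraembryonic sample. DUSP15 reads were likewise scarce outside the disc, and 16 of 22 discs lay above all extraembryonic samples.

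DUSP3, which dephosphorylates ERK and other kinases, was at 0, 12.3 and 23.7 CPM in the discs and 14.3, 21.4 and 35.3 CPM outside, higher in 19 of 22 embryos (log2 change 0.90, SE 0.15, adjusted p = 4.85e-06 in edgeR). DUSP11, an RNA phosphatase, had medians of 38.4 and 42.6 CPM and a log2 change of 0.43 (SE 0.08, edgeR adjusted p = 4.16e-05). DUSP12 was at medians of 24.1 and 29.5 CPM, higher by 0.40 on the log2 scale (SE 0.11, edgeR adjusted p = 0.00209). DUSP22 was higher by 0.61, with medians of 2.50 and 4.10 CPM (SE 0.23, edgeR adjusted p = 0.0243), and lost its call in 4 of 12 alternatives, DUSP12 in 1 of 12. By CPM the extraembryonic part was higher in 16 of 22 embryos for DUSP11, 14 for DUSP12 and 13 for DUSP22. For these 4 genes the disc range contained most extraembryonic values, and at most 11 of 27 extraembryonic samples, those of DUSP3, lay above the highest disc. DUSP14, DUSP19 and DUSP23 were not called, with changes of 0.25, -0.12 and -0.11. DUSP26 and DUSP27 were below the filter, at up to 4.47 and 5.88 CPM.

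**Figure D3:**
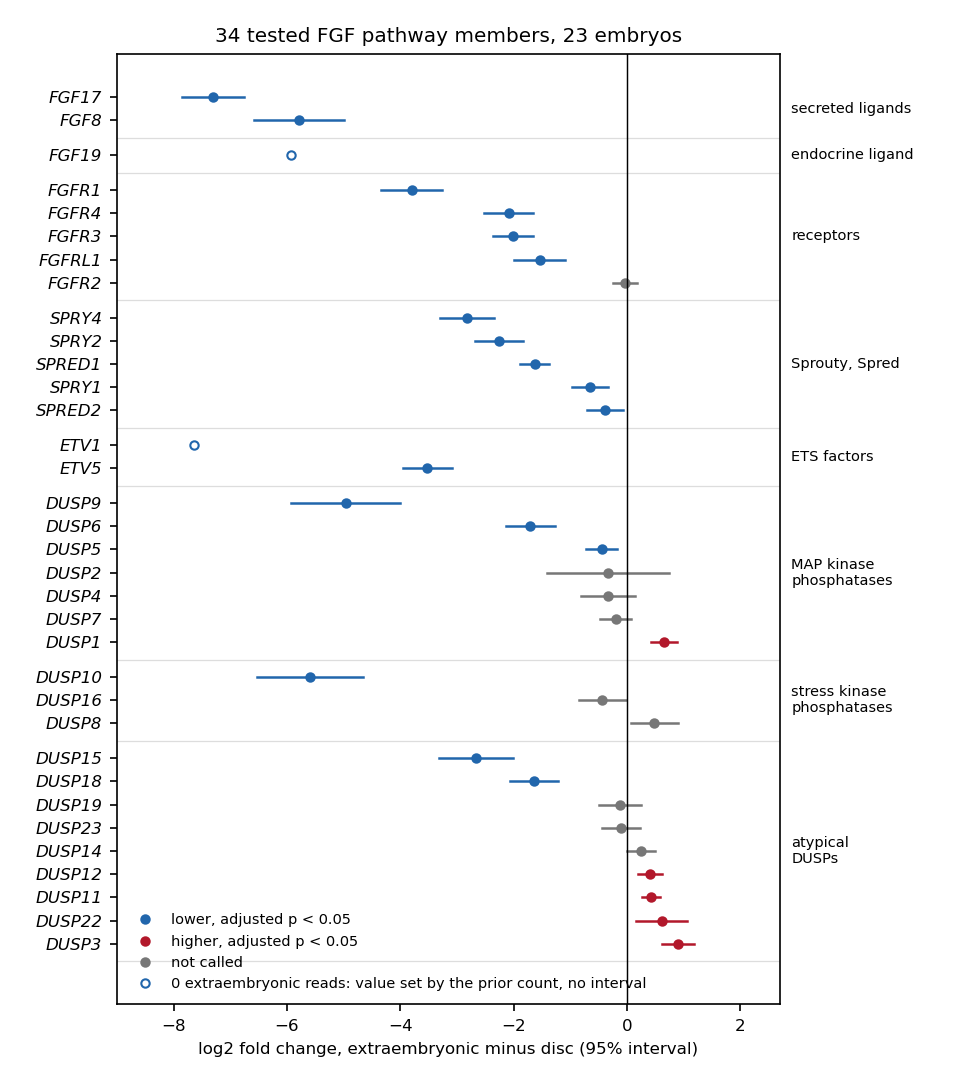
Log2 fold change of extraembryonic tissue against disc for the 34 members tested, grouped by role, with 95% intervals. Members called lower (20) are blue, called higher (5) red and not called grey, and open circles mark FGF19 and ETV1, which had no extraembryonic read and for which the fitted value is not a bound. Ligands, ETS factors, Sprouty and Spred genes all lie left of 0, and the phosphatases lie on both sides.

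Intron reads, a separate count of the same libraries, moved with the exon counts for most larger changes that had enough intron reads. FGF8 had 7 intron reads in discs and 2 outside, DUSP10 2 and 1 and DUSP9 1 and 0, too few to tell. Per 1000000 intron reads, FGFR1 had 107 in pooled discs and 14.0 in pooled extraembryonic tissue, SPRY4 had 37.9 and 4.51, ETV5 17.3 and 3.41, FGFR3 51.4 and 12.4, SPRED1 69.1 and 24.7 and DUSP6 29.5 and 10.8. FGFR2 introns stood at 20.4 and 19.7, as level as its exons. ETV1 introns had 35 reads in discs and 0 outside, and FGF19 introns 41 and 0. DUSP18 was an exception, with 1.73 in discs and 2.44 outside on 9 and 40 intron reads.

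A list of 61 other genes of the pathway (adaptors, RAS and RAF proteins, kinases, early-response genes and heparan sulphate proteins) had 55 rows, of which 48 were tested. Of these 18 were lower and 11 higher outside the disc, 60.4% in all, near the 55.3% of all genes, with a median log2 change of -0.15. The 3 of lowest p among the lower genes were proteins of the heparan sulphate coat: the glypican GPC4 (93.1 against 0.133 CPM, log2 change -8.49), the sulphatase SULF1 (7.48 against 0 CPM, -6.34) and the glypican GPC3 (6.56 against 0 CPM, -5.63). In extraembryonic tissue alone 45 genes of the list passed the filter. With medians of 0.133 CPM or less there, these 3 genes may have entered through their disc reads, which would largely set their direction. Those among the higher genes were the stress kinase MAPK14 (73.5 against 94.3 CPM, 0.52), the early-response gene FOS (367 against 643 CPM, 1.04) and the ERK target IER3 (206 against 276 CPM, 0.79).

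In disc BASAL 12, the disc without SOX2, PRDM14 or NODAL reads, FGF17, FGF8, FGF19, ETV1, DUSP9 and DUSP10 were also at 0. It had the lowest FGFR1, FGFR3, ETV5 and DUSP6 levels of all discs, while SPRY4 was at 17.2 CPM. Without it 24 members were called. Of the cell type markers tested, all 5 epiblast genes, 6 of 7 primitive streak genes and 12 of 13 hypoblast genes were lower outside the disc. Of 11 trophectoderm genes 8 were higher there. Only 2 epiblast, 2 streak and 10 hypoblast genes passed the filter in extraembryonic tissue alone. The other epiblast, streak and hypoblast genes entered through their disc reads, so that their direction was largely set by the filter. The summed levels ran from 65.6 to 378 CPM in discs and 30.9 to 208 CPM outside for the streak genes, from 1295 to 6372 and 744 to 3778 CPM for the hypoblast genes, and from 7182 to 19301 and 16389 to 30478 CPM for the trophectoderm genes. Genes of maternal uterine and blood cells summed to a median of 8.52 CPM in discs (highest 42.9) and 0.728 CPM outside, where HIGH PA 9 stood at 20.6 CPM and all others at or below 2.15 CPM. The 1 such gene tested, CD74, was lower outside the disc (log2 change -6.77). CD74 likewise passed the filter through its disc reads. In bulk tissue, fewer cells of a type and less RNA per cell cannot be told apart, and the part of tissue makeup in these differences was not tested.

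Between discs, many of these genes varied with the summed epiblast level, in which DNMT3B, also found outside the disc, weighs most. Of 25 relations computed over 22 discs as log2(CPM + 1), 13 of the 20 members lower outside the disc had a positive relation with Benjamini-Hochberg adjusted permutation p under 0.05 by both Pearson's r and Spearman's rho. The lowest values among these 13 were r = 0.51 and rho = 0.52. These lowest values were set by the 13 members themselves, so the 65% of the 20 members that reached both was fixed in advance. Of all 3666 genes lower outside the disc (epiblast genes left out) 35.5% reached both values, and setting these shares side by side is not a test. The relation had a positive r in 95.1% of those genes and in 18 of the 20 members, with median r of 0.48 and 0.63. ETV5 had r = 0.90 and rho = 0.80 (adjusted permutation p = 0.000167 and 0.0005), and r = 0.80 without the 2 discs farthest from the median epiblast level. For FGFR1 the values were r = 0.88 and rho = 0.83, and 0.77 without those 2. DUSP6 had r = 0.83 and rho = 0.72, and FGFR3 r = 0.81 and rho = 0.71, with 0.73 and 0.65 without the 2. Disc names begin with the letter A or B, which was taken as a plate row, although the labels do not say so. In the 11 discs of each letter r was 0.91 and 0.88 for ETV5, and 0.89 and 0.86 for FGFR1.

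SPRED1, in contrast, had r = 0.67 and rho = 0.41, and 0.33 without the 2 farthest discs, so that its relation rests on those discs. DUSP1 had a negative relation, r = -0.62 and rho = -0.49 (adjusted permutation p = 0.00615 and 0.0356), and -0.41 without those discs. All values within a library share its depth, and these relations describe how the genes vary together over discs. The permutations took all discs as exchangeable, although some shared a cow, a medium or a sex, which their p-values leave out.

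Effects of the maturation medium were asked in each tissue, with HIGH PA against BASAL as the comparison of palmitic acid at equal solvent. No member was called in discs or in extraembryonic tissue by edgeR or by DESeq2 in any of the 6 comparisons of media. Over all genes edgeR called 0% of 11040 in discs and 0% of 10969 in extraembryonic tissue, and DESeq2 called 0 to 7 genes per comparison. The comparisons of media share the BASAL and CONTROL samples. At an unadjusted p under 0.05, discs had 1004 genes (9.09%) and 5 of 32 members in HIGH PA against BASAL, and extraembryonic tissue 531 genes (4.84%) and 2 of 27 members.

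In the discs the 3 members of lowest p were DUSP18, DUSP10 and SPRED1, each with higher values in HIGH PA, and the other 2 with an unadjusted p under 0.05, DUSP1 and DUSP7, had lower values. DUSP18 was at 3.67, 15.8 and 42.2 CPM in 8 HIGH PA discs and 4.8, 7.62 and 14.4 CPM in 11 BASAL discs, while the 3 CONTROL discs stood at 6.14, 7.02 and 14.4 CPM. The HIGH PA discs reached both the lowest and the highest values, and 4 of 8 lay above every BASAL disc. The log2 difference was 1.47 (SE 0.35, adjusted p = 0.437 in edgeR), and 1.87 with an adjusted p of 0.0288 when cow 07 was left out.

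DUSP10 was at 0, 4.52 and 33.6 CPM in HIGH PA and 0, 1.02 and 5.07 CPM in BASAL discs, on 50 and 45 reads, a log2 difference of 2.53 (SE 0.68, adjusted p = 0.437 in edgeR). Without cow 07 it was 2.97 with an adjusted p of 0.0426, and 2 members and 97 genes were then called. SPRED1 was at 70.2, 134 and 230 CPM in HIGH PA and 42.4, 104 and 136 CPM in BASAL discs, with 4 of 8 HIGH PA discs above every BASAL disc (log2 difference 0.60, SE 0.21, adjusted p = 0.483). Disc CPM values of both media were available from only 3 cows. Cow 07 had 3 HIGH PA and 2 BASAL discs, cow 13 had 2 and 1, and cow 813 had 1 and 3. In each of these 3 cows the median of all 3 genes was higher in HIGH PA. The 3 genes were picked by their p in these same discs, so the cows are not a separate test.

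DUSP1 and DUSP7, which fall outside the rule for named genes and were chosen after their values were seen, went the other way. DUSP7, a cytoplasmic ERK phosphatase, was at 5.55, 8.13 and 12.6 CPM in HIGH PA and 8.53, 11.3 and 17.3 CPM in BASAL discs, with 6 of 8 HIGH PA discs below every BASAL disc (log2 difference -0.54, SE 0.23, adjusted p = 0.513 in edgeR). DUSP1 was at 33.6, 49.6 and 73.8 CPM in HIGH PA and 28.7, 66.2 and 167 CPM in BASAL discs, ranges that overlapped, and differed by -0.83 (SE 0.29, adjusted p = 0.483 in edgeR). The DUSP1 difference was -0.28 without cow 66, -0.20 with the cow as a block and -0.55 without disc BASAL 12.

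Markers of cell types were also uneven between these discs. Summed epiblast genes had medians of 790 CPM in HIGH PA, 712 CPM in BASAL and 550 CPM in CONTROL discs. All 11 trophectoderm genes had lower fitted values in HIGH PA than in BASAL (median log2 difference -0.55, 3 with an unadjusted p under 0.05), with summed medians of 14060 and 15944 CPM. Genes of maternal uterine and blood cells summed to medians of 17.3 CPM in HIGH PA and 7.60 CPM in BASAL discs, and the 1 gene tested, CD74, differed by 1.5 on the log2 scale (unadjusted p = 0.0267 in edgeR). None of these markers was called, and their part in the differences was not tested.

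Disc genes that were not called had wide intervals between media. For HIGH PA against BASAL the 95% interval of the log2 difference was -0.31 to 1.19 for FGFR1, -0.47 to 1.98 for FGF17, -0.25 to 1.15 for ETV5 and -0.42 to 0.83 for SPRY4. These intervals hold no change as well as sizeable rises, so that a difference was not detectable with these discs. Against CONTROL, the members of lowest p in BASAL discs were DUSP7 (0.50, SE 0.32), ETV1 (-1.04, SE 0.72) and DUSP10 (-1.41, SE 0.98), and in HIGH PA discs DUSP16 (0.88, SE 0.48), DUSP18 (0.86, SE 0.48) and DUSP10 (1.12, SE 0.93). At an unadjusted p under 0.05 these comparisons had 379 (3.43%) and 465 genes (4.21%) and 0 members.

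In extraembryonic tissue SPRY4 was at 0, 2.27 and 6.56 CPM in 10 HIGH PA samples and 0.739, 3.87 and 15.8 CPM in 13 BASAL samples (log2 difference -0.74, SE 0.32). FGFR3 was at 12.2, 29.3 and 78.6 CPM in HIGH PA and 2.96, 20.4 and 45.8 CPM in BASAL samples (0.56, SE 0.27), and DUSP22 differed by 0.41 (SE 0.22). All 3 sets of values overlapped over most of their range and none was called. Against CONTROL, DUSP5 was higher in BASAL by 1.57 (SE 0.56) and in HIGH PA by 1.11 (SE 0.57), and DUSP14 by 0.58 (SE 0.23) and 0.57 (SE 0.24). The other members of lowest p were DUSP19 in BASAL (-0.52, SE 0.28) and DUSP2 in HIGH PA (3.63, SE 1.44), the last on 2 reads in CONTROL, and none was called. Here 372 (3.39%) and 1057 genes (9.64%), with 2 members each, had an unadjusted p under 0.05. All CONTROL embryos came from cow 813, which also carried 3 BASAL embryos and 1 HIGH PA embryo. With the cow as a block no member was called against CONTROL in either tissue. In that fit the extraembryonic differences of DUSP5 were 1.11 in BASAL and 1.34 in HIGH PA, and those of DUSP14 were 0.86 and 1.02. In the discs DUSP10 then differed by -0.01 in BASAL and 2.14 in HIGH PA, ETV1 by -0.28 in BASAL, and DUSP16 and DUSP18 by 1.51 and 1.42 in HIGH PA.

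**Figure D4:**
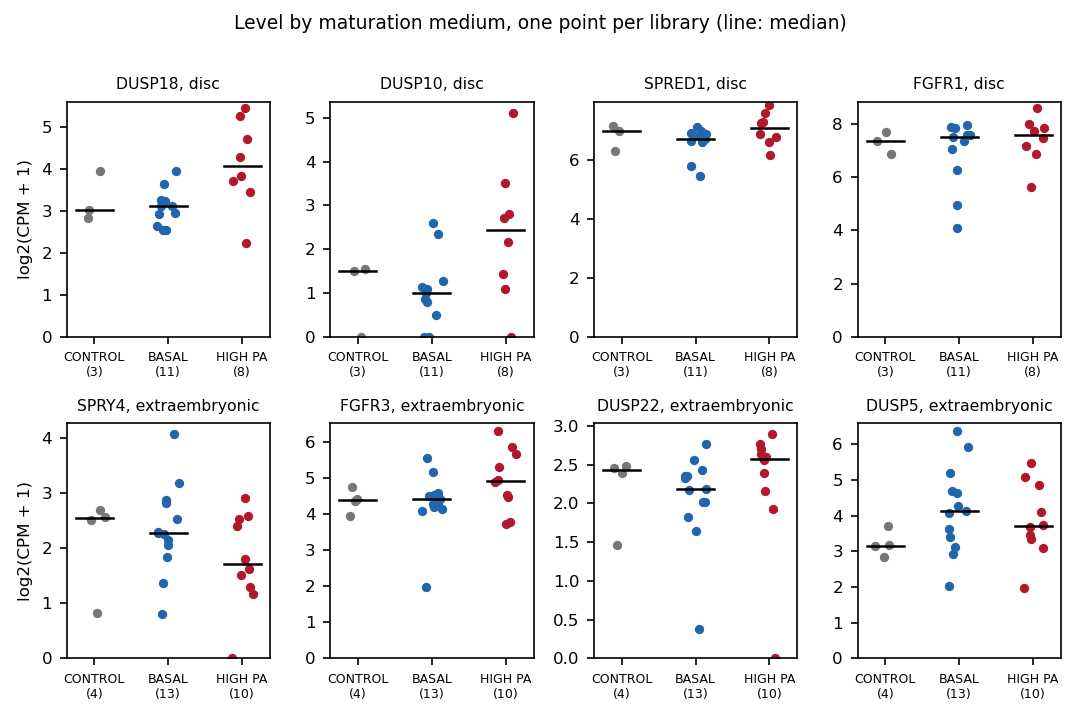
Levels as log2(CPM + 1) by medium for DUSP18, DUSP10, SPRED1 and FGFR1 in discs (3 CONTROL, 11 BASAL, 8 HIGH PA) and for SPRY4, FGFR3, DUSP22 and DUSP5 in extraembryonic tissue (4, 13 and 10), each point 1 library and each line a median. In the discs 4 of 8 HIGH PA points lie above all BASAL points for DUSP18, DUSP10 and SPRED1, and the other panels overlap more.

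Whether the medium acted differently in the 2 parts was tested with an interaction term, which called 0 members and 0 genes in edgeR and in DESeq2, with 366 genes (3.07%) and 1 member at an unadjusted p under 0.05. That member was DUSP18, whose difference between HIGH PA and BASAL was smaller outside the disc (interaction -1.3 on the log2 scale, SE 0.47, unadjusted p = 0.0108 in edgeR). DUSP1 followed with an interaction of 0.54 (SE 0.27).

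Ovoid and tubular embryos were compared within each tissue, with medium and sex in the model, because elongation of the conceptus marks its progress at this age. In extraembryonic tissue 3 members were called, all higher in ovoid embryos: FGFR4, DUSP23 and SPRY2. That is 11.1% of the 27 tested, near the 12.7% of all 10969 genes, of which 6.94% were higher and 5.73% lower in ovoid embryos, and the median log2 difference was 0.03 over members and 0.00 over all genes. Of the genes called 54.7% were higher in ovoid embryos in edgeR and 33.5% in DESeq2, where 2 of these 3 members were called.

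FGFR4 was at 1.86, 4.84 and 11.6 CPM in 9 ovoid samples and 0.512, 1.3 and 3.76 CPM in 16 tubular samples, with 6 ovoid samples above every tubular one. The log2 difference was 1.70 (SE 0.31, adjusted p = 0.00361 in edgeR). In all 4 cows that carried both shapes the FGFR4 median was higher in ovoid embryos, and in 3 of them the shapes did not overlap. Cows 12 and 813 had 1 ovoid sample each. That of cow 813 was the only ovoid CONTROL sample, at 8.16 CPM against at most 1.34 CPM in the 3 tubular CONTROL samples. In cow 72 the ovoid samples were HIGH PA and the tubular one BASAL. FGFR4, DUSP23 and SPRY2 were picked by their p in these same samples, so the cows are not a separate test.

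DUSP23 (chromosome 3, 10029473 to 10030882), a small atypical phosphatase, was at 2.32, 4.57 and 7.09 CPM in ovoid and 1.49, 2.76 and 3.52 CPM in tubular samples, with 8 of 9 ovoid samples above every tubular one. It differed by 0.80 (SE 0.18, adjusted p = 0.0105 in edgeR). SPRY2 was at 4.66, 9.51 and 14.9 CPM against 3.02, 6.78 and 8.53 CPM, with 7 of 9 above, and differed by 0.60 (SE 0.16, adjusted p = 0.0205). In the 4 cows the shapes separated fully for DUSP23 in 4 and for SPRY2 in 2, and in the other 2 cows the SPRY2 median was lower in ovoid embryos.

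These calls rest on few embryos. With the cow as a block no member was called, FGFR4 differing by 1.87 with an adjusted p of 0.232, and leaving out cow 07, cow 813 or cow 66 left 0, 0 and 1 called. A mark 2, whose meaning is not given, stands in the library names of 5 of 9 ovoid and 1 of 17 tubular samples, and marked extraembryonic libraries had a median of 10.7% mitochondrial reads against 4.17% in the rest. Without the marked libraries FGFR4 alone was called (1.54, adjusted p = 0.0317), at a median of 6.02 CPM in 4 ovoid and 1.34 CPM in 15 tubular samples, while DUSP23 and SPRY2 differed by 0.45 and 0.44 and were not called. Of the 10 hypoblast genes tested 4 were higher and 1 lower in ovoid samples, and of 11 trophectoderm genes 2 and 2. The epiblast genes summed to medians of 164 CPM in ovoid and 127 CPM in tubular samples, and the part of tissue makeup was not tested.

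**Figure D5:**
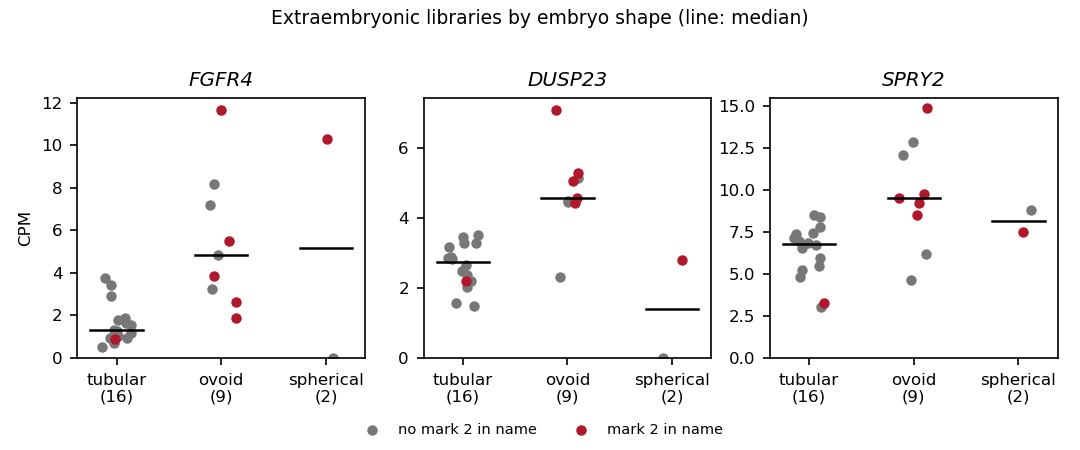
CPM of FGFR4, DUSP23 and SPRY2 in extraembryonic tissue of 16 tubular, 9 ovoid and 2 spherical embryos, each point 1 library, red points those with a mark 2 in the name and each line the median. For FGFR4 6 of 9 ovoid samples lie above every tubular sample, and unmarked ovoid samples are among them.

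In the discs no member was called between ovoid and tubular embryos by edgeR, which called 0% of 11040 genes, or by DESeq2, which called 17 genes. At an unadjusted p under 0.05 there were 806 genes (7.3%) and 1 member, SPRED1, which differed by -0.47 (SE 0.17, adjusted p = 0.591 in edgeR). SPRY2 differed by -0.58 (SE 0.31) and DUSP9 by -1.09 (SE 0.58). With the cow as a block SPRED1 and SPRY2 turned to 0.25 and 0.24. The disc difference of FGFR4 was 0.43 (95% interval -0.26 to 1.11). The test of whether shape acted differently in the 2 parts called 0 members and 0 genes in edgeR, with 1707 genes (14.3%) and 6 members at an unadjusted p under 0.05, and 0 members and 54 genes in DESeq2. The edgeR interaction was 1.2 for SPRY2 (SE 0.40), 1.12 for FGFR4 (SE 0.41) and 2.99 for DUSP9 (SE 1.18), with adjusted p values of 0.235, 0.264 and 0.281, so that a difference between the parts was not shown.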

How the data were processed

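Total RNA of each part was made into stranded TruSeq mRNA libraries and sequenced as paired 50-base reads, 12 samples to a lane, per the labels' protocols. The table deposited by the authors holds whole-number counts of exon reads (all tests), uniquely placed exon reads (an alternative) and intron reads. Per the submitters' processing notes the genome was UMD3.1 and the tools included DESeq2 1.10.1. Aligner and strand setting are not given in the sources used, so reads from overlapping antisense genes cannot be told apart.

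Members, lists, tests and alternatives were chosen with earlier results of these data known. Named were all members called in tissues, with SE and p for the 12 of lowest p in each direction, and elsewhere the members called or the 3 of lowest p. edgeR 4.0.16 in R 4.3.3 (quasi-likelihood F test, TMM scaling, default low-count filter) was fitted to all genes: tissues with embryo as a block (23 embryos, 22 residual degrees of freedom), media with medium and sex, shapes with shape, medium and sex, and interactions in the block design. The embryo block pairs parts of 1 embryo as labelled. Models with sex lack 1 extraembryonic sample of undetermined sex. A Benjamini-Hochberg adjusted p under 0.05 was a call. CPM values leave out 2 libraries under 10000 reads, which fits keep. P-values measure the spread between embryos, some of which shared a cow and may have shared a flush, which the labels do not give. DESeq2 1.42.0 and limma-voom 3.58.1 were alternatives. Relations used 100000 permutations. Tests were checked on simulated data. Tests were 2-sided, and counting intervals cover counting error only. One result on other genes of the pathway is not reported here.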

Additional observations from a re-analysis of the deposited data

Results flagged for a closer look

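In groups of 4 to 10 samples, 14 of 93 groups over 31 members held a sample apart from the others by Dixon's criterion at 95%. Chance gives this in about 1 of 20 groups of normally spread values. Low counts are not so spread, since a lone read among samples at 0 is always flagged, and the members had been picked by p. The 14 groups therefore cannot be set against that rate. Many rest on few reads. The ovoid extraembryonic CONTROL 4 held 4 of them: FGFR4 at 8.16 CPM against at most 1.34 CPM in the other 3 samples, DUSP7 at 10.1 against at most 6.86 CPM, SPRY4 at 0.777 against at least 4.71 CPM, and DUSP22 at 1.75 against at least 4.25 CPM. Disc HIGH PA 5, with 119116 reads, held 3: ETV1 at 42 CPM on 5 reads, DUSP10 at 33.6 CPM on 4 reads and DUSP23 at 25.2 CPM on 3 reads. Disc HIGH PA 3 had FGF8 at 9.61 CPM on 13 reads, with the next of the 8 HIGH PA discs at 2.53 CPM and the highest BASAL disc at 5.79 CPM. The spherical extraembryonic HIGH PA 10 had FGFR1 at 76.7 CPM on 82 reads against at most 17.6 CPM in the other 9, together with the highest summed epiblast level of that tissue, 428 CPM, and the part of that level in it was not tested. The other spherical sample, HIGH PA 9, had DUSP1 at 212 CPM, with the next at 135 CPM. In extraembryonic samples a lone read or 2 set FGF17 apart at 0.0938 CPM in HIGH PA 7, FGF8 at 0.178 CPM in HIGH PA 1, DUSP9 at 0.167 CPM in CONTROL 2 and DUSP2 at 0.274 CPM in CONTROL 1.

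The 2 undissected HIGH PA embryos, 1 spherical and 1 ovoid, entered no comparison. Both came from cow 66, and every CONTROL library came from cow 813. Over 31 members in these 2 embryos, 11 values lay above every CONTROL library of either part. The share over all genes was not computed, so that this count is not a result about the members. DUSP14 was at 269.3 CPM in the spherical and 235 CPM in the ovoid embryo against at most 144 CPM in CONTROL, DUSP16 at 39.1 and 38.2 against at most 21.0 CPM, and DUSP7 at 12.1 and 10.8 against at most 10.5 CPM. The ovoid embryo also had DUSP1 at 222 CPM (CONTROL at most 140 CPM), DUSP5 at 96.9 CPM (31.1 CPM), DUSP2 at 12.4 CPM (0.777 CPM) and DUSP23 at 6.05 CPM (4.60 CPM). The spherical embryo had FGFR4 at 27.7 CPM (15.2 CPM).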

How the results depend on the processing

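In the tissue comparison 18 (HIGH PA embryos only) to 28 members (without libraries under 1000000 reads) were called over 12 alternatives, and 24 without disc BASAL 12. Of the 25 called members 17 were called in every alternative, and none changed sign. FGF8 was lost in DESeq2, and DUSP15, DUSP11, SPRY1 and DUSP12 with HIGH PA embryos alone. SPRED2 was lost in 9 (lowest size -0.12), DUSP5 in 6 and DUSP22 in 4. Of the genes called, 44.3% were higher outside the disc in edgeR, 34.4% with DESeq2 size factors and 55.4% in DESeq2. Without the replicate block of embryos 23 members were called.

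The 3 members called between shapes in extraembryonic tissue became 0 with cow as a replicate block, 0 in BASAL embryos only, 1 with flush as a correlated block in limma-voom, 1 with the mark 2 as a term and 1 without the marked libraries. Leaving out each cow gave 0 to 4. The cause was not tested. In discs, leaving out each cow gave 0 to 2 members called for HIGH PA against BASAL (2 without cow 07), where DUSP10 has no value without cow 813 because it fell under the filter. With the cow block the disc shape differences of SPRED1 and SPRY2 turned to 0.25 and 0.24, and without libraries under 1000000 reads the FGF8 interaction of medium and tissue turned from 0.42 to -1.22. These members were not called. The other media and disc shape counts stayed at 0 in all their alternatives. Of 697 refits of named members 647 kept direction and call, 45 lost the call, 2 gained it and 3 turned. The alternatives on the mark 2 and on libraries under 1000000 reads were chosen after seeing the data. Depth limits the ligands, which have at most 255 disc reads.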

Other observations

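In the undissected embryos FGF17, FGF8, FGF19 and ETV1 had no reads. FGFR1 stood at 49.0 CPM in the spherical and 6.05 CPM in the ovoid embryo, and FGFR3, the highest receptor per length in both, at 60.4 and 48.1 CPM. DUSP6 was at 5.68 and 71.7 CPM and DUSP18 at 0.711 and 13.1 CPM in the same order. The spherical embryo had FGF18 at 4.97 CPM, above the 2.58 CPM of the highest extraembryonic sample. No explanation was tested.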
